A study of Mus musculus with 12 samples.

Results

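Semaphorins are guidance ligands of growing axons and migrating neurons, and plexins and neuropilins are the receptors that read them. The genes described here were every row of the gene list whose symbol begins with Sema3, Sema4, Sema5, Sema6, Sema7 or Plxn, together with Nrp1 and Nrp2, which gave 34 of 55335 listed genes. They comprised 20 semaphorins, 9 plexins, 2 neuropilins and 3 antisense transcripts of Plxna4 (Plxna4os1, Plxna4os2 and Plxna4os3). Their RNA was measured by single-nucleus RNA sequencing of mouse forebrain at postnatal day 1, in 8 wild-type (WT) libraries, 5 male and 3 female, and in 4 libraries heterozygous (Het) for a germline frameshift allele of Myt1l (S710fsX, line C57BL/6-Myt1l em1Jdd/J, bred with C57BL/6 J mice), 3 male and 1 female. One sentence of the study gives the group sizes the other way round, and the labels were followed. Myt1l encodes a zinc finger transcription factor of neurons. Each library came from 1 animal, and the study drew its postnatal animals from several litters, so the libraries are separate animals but not necessarily separate litters. The tissue is forebrain by the labels, while the study's methods name prefrontal cortex in 1 place, so its extent is uncertain.

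Class 3 semaphorins are secreted, and most of them bind a neuropilin that carries a plexin A as its signalling partner. Class 4, 5 and 6 semaphorins span the membrane, class 7 is anchored to it by a lipid, and these bind plexins directly. On binding, the plexin's cytoplasmic part acts on small GTPases and collapses or redirects the growth cone. In the newborn forebrain the system is known for steering cortical axons, for sorting interneurons on their way to the cortex, and for guiding blood vessels.

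The 12 libraries held between 15439429 and 40784144 unique molecular identifiers (UMIs), and 98076 nuclei passed the filter, between 4634 and 11474 in a library. No barcode was shared between libraries (0). Nuclei were assigned to classes from marker genes, none of which is a semaphorin, plexin or neuropilin. This placed 60% of kept nuclei (58871) in a class, and 9508 nuclei that looked like a mixture of 2 lineages were left out. A class was used where at least 3 libraries of each genotype held 10 or more of its nuclei, which left 17 classes. Of the 52 markers that were held out of the gate for these classes, 42 were highest in their own class. In the class names ExN means an excitatory and InhN an inhibitory neuron. MGE is the medial and CGE the caudal ganglionic eminence, and D1 or D2 names the dopamine receptor of a striatal projection neuron. Levels are CPM, the UMIs of a gene scaled to the total of its class and library, so they are relative, and they are compared between classes and libraries but not between genes.

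Some classes went against their labels in part. Of the 3 held-out markers of the upper-layer ExN-like class, 1 was highest there. None of the 2 held-out markers of the CGE InhN-like class (0) was highest there, although Adarb2 and Prox1 led it. The class gated on olfactory markers was led by Tshz1 and Pbx3 and is called Tshz1/Pbx3-led InhN here. The microglia-like class was led by Mrc1, F13a1 and Stab1, genes of macrophages at the brain's borders, with all 5 held-out microglial markers highest in it. Myt1l itself lay between 1271 and 1607 CPM over WT and between 1526 and 1646 CPM over Het libraries in all kept nuclei (log2 fold change 0.11, SE 0.06, adjusted p = 0.564). In upper-layer ExN-like nuclei it lay between 1438 and 2000 CPM over WT and between 1989 and 2109 CPM over Het libraries (log2 fold change 0.21, SE 0.07, edgeR adjusted p = 0.301). The study's text does not say whether this frameshift allele lowers the RNA, so the RNA level does not check the genotype labels.

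Levels of many of the ligands and receptors differed between classes. Plxna4 and Plxna2 were highest in excitatory neurons, Sema5a, Sema6d and Plxnb3 in the oligodendrocyte lineage, Sema5b, Sema4b and Plxnb1 in astroglia, Sema6a, Sema7a, Plxnd1 and Sema3g in endothelium, Sema3a and Sema3d in meningeal fibroblasts, and Nrp1 in the microglia-like class. To test this, the leading class and the runner-up of each gene were chosen by the mean of log2(CPM + 1) over the Het libraries, and the difference was tested in the WT libraries, which had no part in the choice. The leading class was above the runner-up for 17 of the 34 genes (two-sided exact sign-flip permutation test, unadjusted p under 0.05). The background share was 17.5% over all 23468 genes with at least 50 UMIs, a set that also holds sparsely counted genes and was not matched to the members for level. With 8 libraries the smallest p this test allows is 0.00781, which became 0.0845 after adjustment over all genes, so none of the 23468 genes passed an adjusted 0.05 in these data. For 6 of the 34 genes fewer than 6 WT libraries held both classes, and the test could not reach 0.05. In 25 of 34 genes the class chosen in Het libraries was also the highest by the WT mean.

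**Figure D1:**
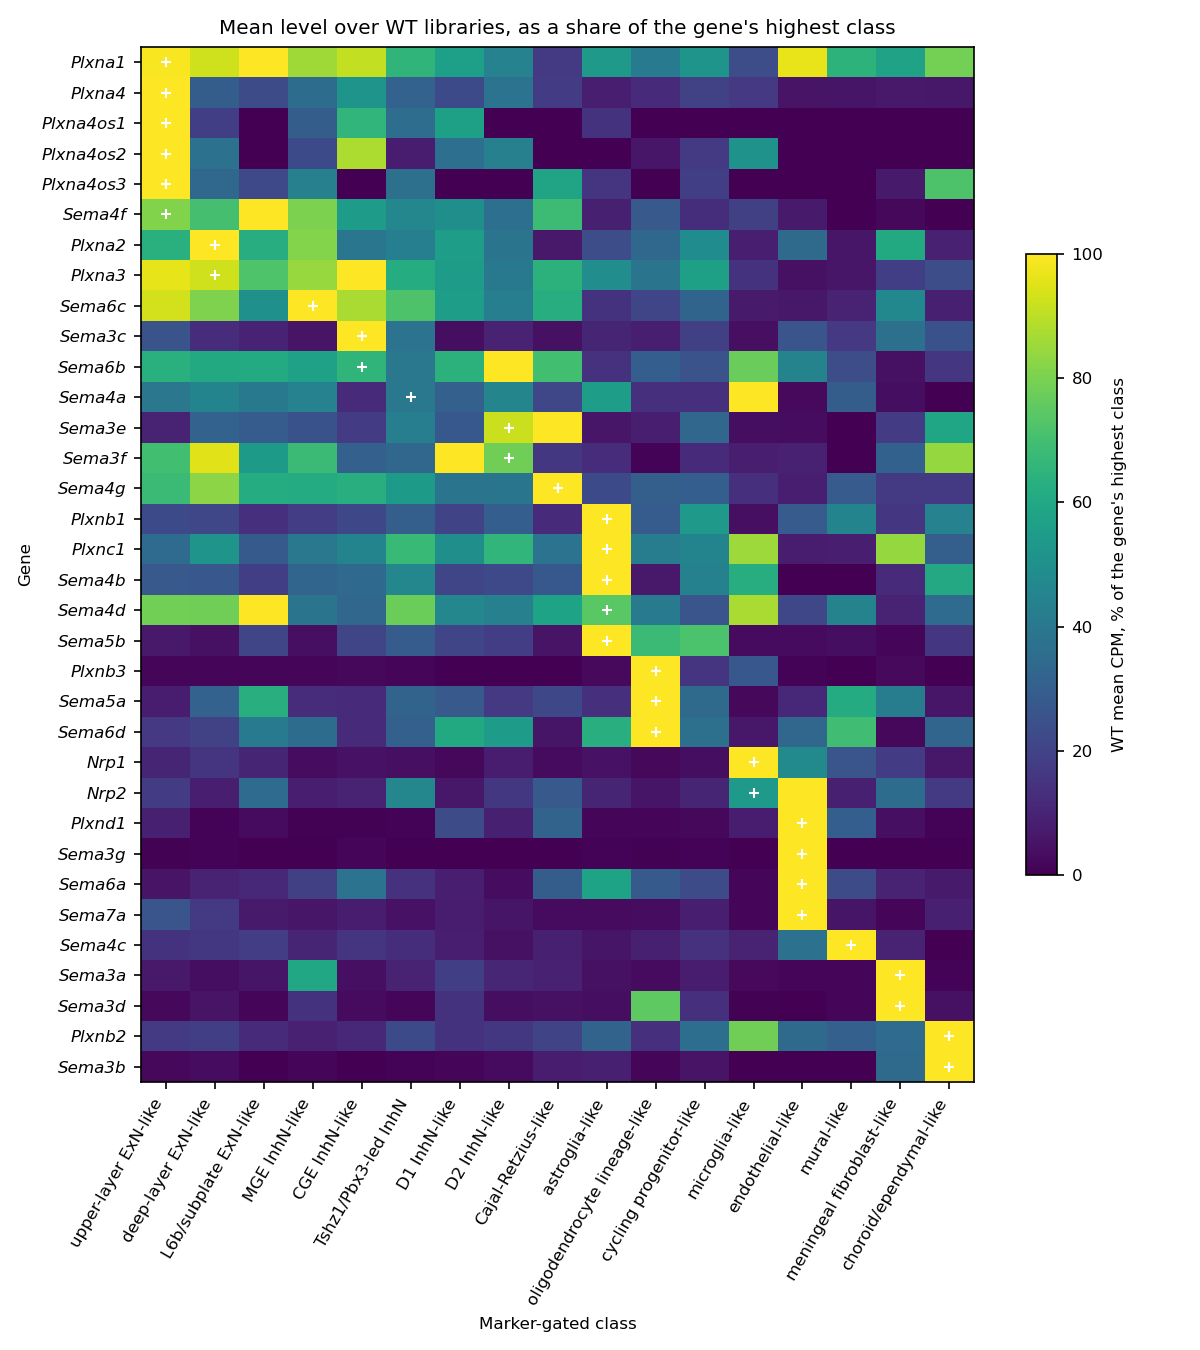
Mean level of each of the 34 genes (rows) in each of the 17 marker-gated classes (columns) over WT libraries, as a percentage of that gene's highest class; white crosses mark the class that led in the Het libraries. Sema3g is near 0 outside the endothelial-like class, while Plxna1, Sema4f and Sema6c are spread over most neuronal classes.

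A paired count model (edgeR, library as a block, TMM scaling, adjusted over all genes of the class pair) was added after the data had been seen. It gave 13 of 22 members that passed its filter as higher in the leading class. The background share in that model was 54.9% of 1098 genes, each tested in the leading and runner-up class chosen for it in the same way and with the same class pairs as the members. The share of members stood near this background, so a leading class above its runner-up was not particular to them. TMM scaling moved all genes together by between -0.40 and 0.94 on the log2 scale from one class pair to another. Under a stricter gate 12 members were called by the exact permutation test. The calls of Sema6d, Sema3c, Sema4b, Plxnc1, Plxna4os1 and Plxna4os2 were lost. That of Sema4a in astroglia-like over upper-layer ExN-like nuclei was gained. For Sema6d, Sema3c and Sema4b the exact permutation p was 0.5 under this gate. The class pair could change with the gate, as for Sema4a, and the number of WT libraries holding both classes is not given. The test may have been unable to make the lost calls, so no conclusion is drawn from them. With all barcodes 17 were called, without Plxna4os1, Plxnb3 and Plxnc1 and with Plxnb1, Sema3g and Sema4c. With log2(CPM + 5) 14 were called, without Plxnb3, Plxna4os1 and Plxna4os2.

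**Figure D2:**
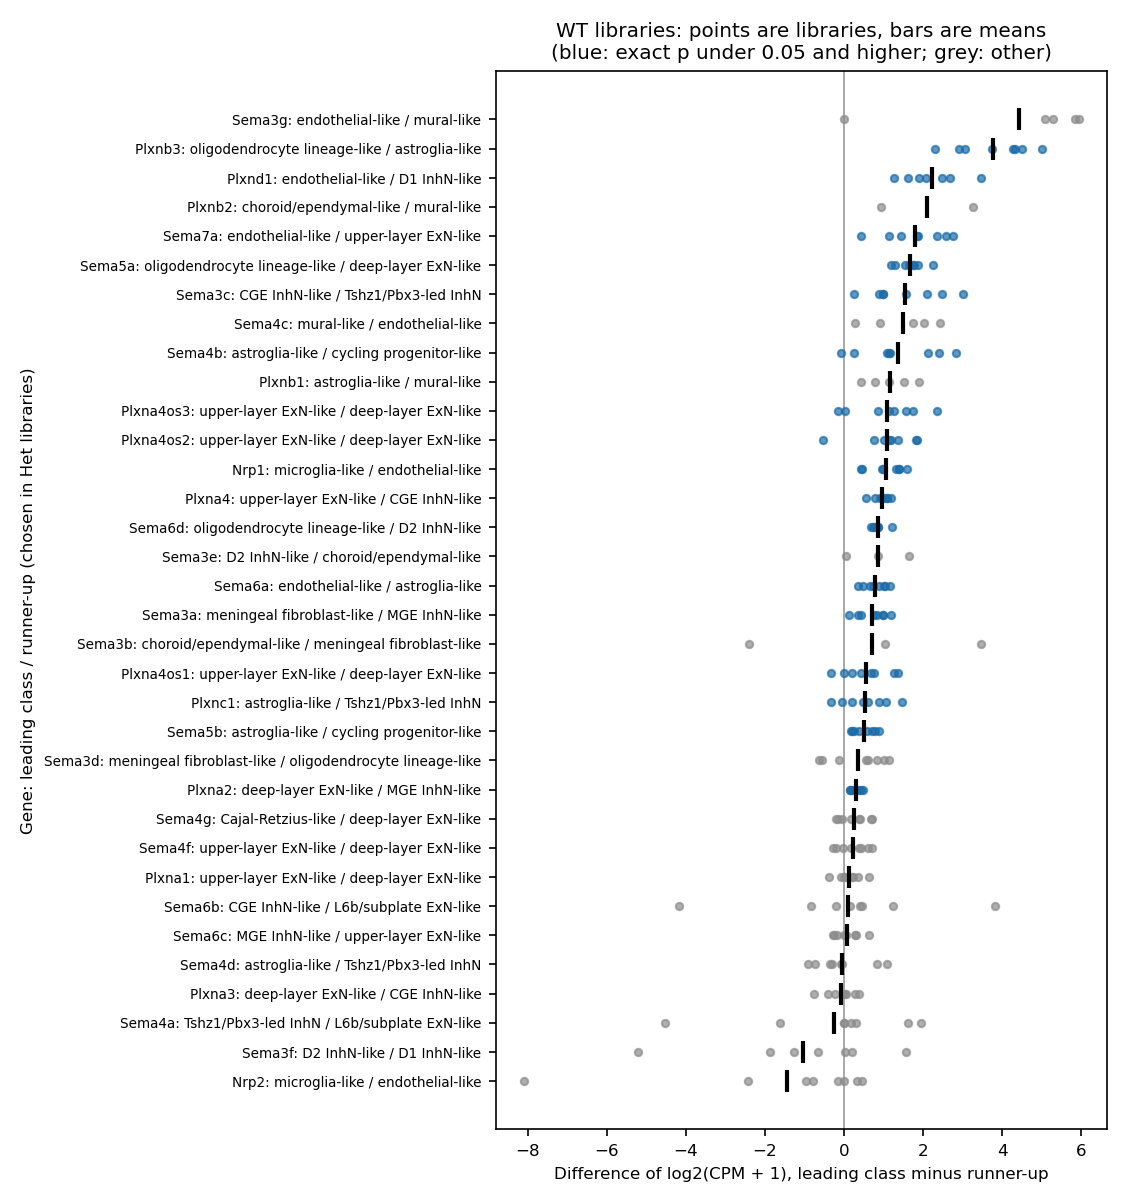
Difference of log2(CPM + 1) between the leading class and the runner-up (x axis) for each of the 34 genes (y axis); points are WT libraries, black bars their means, and blue marks the 17 genes with an exact p under 0.05. For Plxna4, Sema6d and Sema5a every library lies well to the right of 0, while Sema6c, Sema4d and Plxna3 straddle it.

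Among the secreted ligands, Sema3a, the growth cone collapsing semaphorin that acts through Nrp1, was highest in meningeal fibroblast-like nuclei. It stood there between 691 and 1428 CPM in WT libraries (median 1135) and at 1004, 1303, 1111 and 938 CPM in Het male 1, male 2, male 3 and female 1. MGE InhN-like nuclei, the precursors of most somatostatin and parvalbumin interneurons, came next with 653 ± 78.6 CPM (SD, n = 8). The fibroblast class was higher in 8 of 8 WT libraries, by 0.71 ± 0.36 (log2, SD, n = 8; exact permutation p = 0.00781). In the paired count model the difference was 0.24 (SE 0.11, adjusted p = 0.0706), so both scales put the fibroblast class higher and the call was lost in the count model. D1 InhN-like nuclei followed with 204 ± 27.2 CPM (SD, n = 7), and the excitatory classes were lower, with 74.7 ± 10.6 CPM (SD, n = 8) in upper-layer ExN-like nuclei.

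Sema3d shared the fibroblast lead, with 285 ± 107 CPM (SD, n = 8), but oligodendrocyte lineage-like nuclei had 214 ± 46.2 CPM (SD, n = 8), a difference within the scatter of the libraries (exact permutation p = 0.211). Sema3c, which can attract cortical axons, was highest in CGE InhN-like nuclei among the 17 tested classes, at 185 ± 53.7 CPM (SD, n = 8). The 41 intermediate progenitor-like nuclei, too few to test, had 499 CPM in the 18 WT nuclei (15 UMIs, 95% exact Poisson interval from 279 to 823 CPM) and 395 CPM in the 23 Het nuclei (18 UMIs, interval from 234 to 624 CPM), where the intervals cover counting error only. Levels in the CGE class ran from 113 to 283 CPM over WT libraries (median 179) and from 94.7 to 244 CPM over Het libraries. The Tshz1/Pbx3-led InhN came next at 70.5 ± 35.3 CPM (SD, n = 8), lower in 8 of 8 libraries (exact permutation p = 0.00781, paired edgeR log2 difference 1.497, SE 0.20, adjusted p = 4.97e-06).

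Sema3e, the ligand that binds Plxnd1 without a neuropilin, had no clear leader. Cajal-Retzius-like nuclei, the reelin-secreting neurons of the marginal zone, had 166 ± 166 CPM (SD, n = 8), with WT female 3 at 551 CPM and WT female 2 at 5.79 CPM. D2 InhN-like nuclei had 152 ± 55.4 CPM (SD, n = 7). Sema3f, the Nrp2 ligand, was low everywhere, with 27.3 ± 10.1 CPM (SD, n = 7) in D1 InhN-like and 26.0 ± 7.34 CPM (SD, n = 8) in deep-layer ExN-like nuclei. Sema3g had 77 of its 133 UMIs in endothelial-like nuclei, with 38.4 ± 26.9 CPM (SD, n = 8), with 2 WT libraries at 0. Sema3b had 185 UMIs in all kept nuclei and was highest in choroid/ependymal-like nuclei, at 19.9 ± 24.9 CPM (SD, n = 3).

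Of the membrane ligands, Sema6d, which acts on plexin A receptors, was highest in the oligodendrocyte lineage. Oligodendrocyte lineage-like nuclei had between 2840 and 3367 CPM in WT libraries (median 2972) and 2585, 2951, 2947 and 2716 CPM in Het male 1, male 2, male 3 and female 1. The runner-up named in the Het libraries, D2 InhN-like, had 1670 ± 132 CPM (SD, n = 7), lower in 7 of 7 libraries (exact permutation p = 0.0156, the smallest 7 libraries allow, paired edgeR log2 difference 0.82, SE 0.11, adjusted p = 1.61e-07). Mural-like nuclei had 2087 ± 320 CPM (SD, n = 5) and astroglia-like nuclei 1908 ± 162 CPM (SD, n = 8). Upper-layer ExN-like nuclei had 501 ± 59.6 CPM (SD, n = 8).

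Sema5a, a ligand with thrombospondin repeats, was also highest in the oligodendrocyte lineage, at 488 ± 74.6 CPM (SD, n = 8) with 512 ± 66.3 CPM in Het libraries (SD, n = 4). It exceeded deep-layer ExN-like nuclei in 8 of 8 WT libraries (154 ± 30.6 CPM, SD, n = 8, exact permutation p = 0.00781). By the WT mean 2 sparser classes lay closer and were not tested against it, L6b/subplate ExN-like nuclei at 308 ± 134 CPM (SD, n = 8) and mural-like nuclei at 299 ± 120.3 CPM (SD, n = 5). Its close relative Sema5b was highest in astroglia-like nuclei, at 433 ± 51.5 CPM (SD, n = 8), above cycling progenitor-like nuclei at 310 ± 65.3 CPM (SD, n = 8) in 8 of 8 libraries (exact permutation p = 0.00781). Sema4b led in astroglia-like nuclei too, at 61.9 ± 15.5 CPM (SD, n = 8), above cycling progenitor-like nuclei at 27.3 ± 16.9 CPM in 7 of 8 libraries (exact permutation p = 0.0156).

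Vessel cells held a second group of ligands. Sema6a, which signals to Plxna2 and Plxna4, stood between 1457 and 2112 CPM in endothelial-like nuclei over WT libraries (median 1654), and at 1523, 1305, 1499 and 1471 CPM over the 4 Het libraries. Astroglia-like nuclei had 983 ± 149 CPM (SD, n = 8), lower in 8 of 8 libraries (exact permutation p = 0.00781, paired edgeR log2 difference 0.57, SE 0.11, adjusted p = 1.13e-05). Sema7a, the lipid-anchored ligand of Plxnc1, had 184 ± 82.2 CPM (SD, n = 8) in endothelial-like and 48.6 ± 9.90 CPM (SD, n = 8) in upper-layer ExN-like nuclei (exact permutation p = 0.00781, 8 of 8 libraries). Its paired edgeR difference was 0.87 on the log2 scale (SE 0.15, adjusted p = 9.3e-08) against 1.80 ± 0.78 (SD, n = 8) by CPM. Sema4c led in mural-like nuclei at 177 ± 99.2 CPM (SD, n = 5) on 31 UMIs in all, which 5 libraries cannot test below 0.0625.

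For the other membrane ligands no leading class was told from its runner-up. Sema4g had 102 ± 24.0 CPM (SD, n = 8) in Cajal-Retzius-like and 84.1 ± 10.4 CPM (SD, n = 8) in deep-layer ExN-like nuclei (exact permutation p = 0.102). Sema6c had 45.5 ± 10.7 CPM in MGE InhN-like and 42.5 ± 2.88 CPM in upper-layer ExN-like nuclei (SD, n = 8 each, exact permutation p = 0.555). For Sema4f, Sema4d, Sema4a and Sema6b the exact permutation p was 0.141, 0.766, 0.844 and 0.828. Their highest WT means lay in classes outside the tested lead, with Sema4a at 40.1 ± 74.9 CPM (SD, n = 8) in the microglia-like class on 12 UMIs, Sema6b at 24.9 ± 21.9 CPM (SD, n = 7) in D2 InhN-like nuclei, and Sema4d and Sema4f at 62.9 ± 14.4 and 35.3 ± 13.7 CPM (SD, n = 8) in L6b/subplate ExN-like nuclei.

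The highest means of both neuropilins lay in the microglia-like and endothelial-like classes. Nrp1 (chromosome 8, 128358604 to 128503363, plus strand, GRCm38) binds Sema3a and vascular endothelial growth factor. In the microglia-like class it stood between 983 and 2132 CPM over WT libraries (median 1162) and at 1897, 535, 1177 and 927 CPM in Het male 1, male 2, male 3 and female 1. Endothelial-like nuclei came next at 619 ± 151 CPM (SD, n = 8), lower in 8 of 8 libraries (exact permutation p = 0.00781, paired edgeR log2 difference 0.92, SE 0.16, adjusted p = 5.75e-06). Mural-like nuclei had 341 ± 152 CPM (SD, n = 5), and meningeal fibroblast-like nuclei had 227 ± 73.5 CPM (SD, n = 8). Among neurons, deep-layer ExN-like nuclei had 199 ± 33.9 CPM (SD, n = 8), upper-layer ExN-like nuclei 134 ± 19.8 CPM (SD, n = 8) and MGE InhN-like nuclei 41.4 ± 8.70 CPM (SD, n = 8).

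Nrp2 (chromosome 1, 62703285 to 62818695, plus strand) is the receptor for Sema3f. Its order was not settled between 2 non-neuronal classes, since the microglia-like class led in Het libraries and the endothelial-like class by the WT mean, at 125 ± 75.9 against 232 ± 140 CPM (SD, n = 8 each, exact permutation p = 0.125). WT female 3 had 0 CPM in the microglia-like class, where the gene had 77 UMIs in all. The Tshz1/Pbx3-led InhN had the highest neuronal level, at 107 ± 17.8 CPM (SD, n = 8), against 40.8 ± 16.4 CPM (SD, n = 8) in upper-layer ExN-like nuclei, and its difference from the microglia-like class was not tested.

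The promoters of both neuropilins and of Plxnc1 are shown because these genes had small unadjusted p between genotypes in upper-layer ExN-like nuclei, with fold changes of either sign and none of them called, and because the MYT1 family is known to bind the letters AAGTT. The windows run from 250 bases before to 50 bases after the start in RefSeq (GRCm38.p6), written 5′ to 3′ on the gene's strand, with AAGTT or its reverse complement AACTT in capitals. Nrp1 lies at chr8:128358823-128359122 and Nrp2 at chr1:62703067-62703366, both on the plus strand, and Plxnc1 at chr10:94944796-94945095 on the minus strand. The gene annotation used for the positions above starts Nrp1 469 bases upstream of the RefSeq start, so this Nrp1 window lies within the gene as given there, while its start of Nrp2 lies 32 bases upstream and that of Plxnc1 10 bases downstream.
Nrp1: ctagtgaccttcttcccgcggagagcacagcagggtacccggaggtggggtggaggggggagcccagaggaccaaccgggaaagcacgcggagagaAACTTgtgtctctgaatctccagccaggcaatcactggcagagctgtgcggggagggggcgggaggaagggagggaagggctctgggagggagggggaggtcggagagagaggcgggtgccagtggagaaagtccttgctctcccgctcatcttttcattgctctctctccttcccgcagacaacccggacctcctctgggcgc
Nrp2: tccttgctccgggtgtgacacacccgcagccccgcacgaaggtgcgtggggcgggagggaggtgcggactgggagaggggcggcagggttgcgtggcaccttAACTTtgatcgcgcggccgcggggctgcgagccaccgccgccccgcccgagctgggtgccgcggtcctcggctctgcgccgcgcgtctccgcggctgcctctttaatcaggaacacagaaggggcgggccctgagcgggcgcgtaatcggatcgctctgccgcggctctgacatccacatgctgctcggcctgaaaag
Plxnc1: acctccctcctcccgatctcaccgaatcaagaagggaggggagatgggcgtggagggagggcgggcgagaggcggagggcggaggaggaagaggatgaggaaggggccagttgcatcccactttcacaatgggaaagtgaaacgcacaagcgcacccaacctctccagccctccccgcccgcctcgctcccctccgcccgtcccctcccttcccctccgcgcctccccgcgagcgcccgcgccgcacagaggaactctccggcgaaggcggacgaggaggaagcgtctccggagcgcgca
The windows of both neuropilins held 1 match each, at position -154 from the start of Nrp1 and -148 from that of Nrp2. The Plxnc1 window held 0. Sema3a, Sema6a and Sema6d also had an unadjusted edgeR p under 0.05 in that class, and no window of theirs is printed. The Sema3a window held 3 matches, the Sema6d windows held 1 and 0, and no window was found for Sema6a. These 5 letters stood in 39.3% of all 32851 promoter windows and in 11 of the 37 windows found for 26 of the members, so a match is common and describes only the letters.

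Among the plexins, Plxna4 (chromosome 6, 32144268 to 32588192, minus strand) partners the neuropilins and binds Sema6 ligands directly. It stood between 1458 and 2028 CPM in upper-layer ExN-like nuclei over WT libraries (median 1813) and at 1631, 1977, 1873 and 1775 CPM over the 4 Het libraries. CGE InhN-like nuclei had 929 ± 111 CPM (SD, n = 8), lower in 8 of 8 libraries (exact permutation p = 0.00781, paired edgeR log2 difference 1.01, SE 0.08, adjusted p = 4.05e-15). The antisense transcripts Plxna4os1, Plxna4os2 and Plxna4os3 lie inside Plxna4 on the other strand. They were also highest in upper-layer ExN-like nuclei, at 0.67 ± 0.57, 4.05 ± 1.10 and 3.68 ± 1.83 CPM (SD, n = 8). No source used here says whether the counting used strand, so these reads cannot be told apart from those of Plxna4. The same holds for Nrp2, Plxna1, Plxnb1, Sema3a, Sema3d, Sema3e, Sema4c, Sema4d, Sema5a, Sema5b and Sema6d, each of which overlaps an annotated gene on the other strand.

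Plxna2, a receptor for Sema6a, was highest in deep-layer ExN-like nuclei at 904 ± 117 CPM (SD, n = 8), above MGE InhN-like nuclei at 737 ± 72.0 CPM in 8 of 8 libraries (exact permutation p = 0.00781, paired edgeR log2 difference 0.33, SE 0.05, adjusted p = 7.22e-06). For Plxna3 and Plxna1 the leading class was not told from the runner-up. Plxna3 had 90.5 ± 11.2 CPM in deep-layer ExN-like and 97.4 ± 21.9 CPM in CGE InhN-like nuclei (SD, n = 8 each, exact permutation p = 0.570), and Plxna1 had 40.6 ± 4.40 CPM in upper-layer and 38.0 ± 9.75 CPM in deep-layer ExN-like nuclei (SD, n = 8 each, exact permutation p = 0.328).

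Plxnd1, the vascular receptor for Sema3e, stood between 204 and 432 CPM in endothelial-like nuclei over WT libraries (median 360.5). D1 InhN-like nuclei had 79.2 ± 32.9 CPM (SD, n = 7), lower in 7 of 7 libraries (exact permutation p = 0.0156, paired edgeR log2 difference 1.74, SE 0.16, adjusted p = 7.26e-20). Cajal-Retzius-like nuclei had 108 ± 36.2 CPM (SD, n = 8). Plxnb1, the receptor for Sema4d, was highest in astroglia-like nuclei at 133 ± 12.2 CPM (SD, n = 8), followed by cycling progenitor-like nuclei at 71.9 ± 20.3 CPM (SD, n = 8). Against the runner-up of the Het libraries, mural-like nuclei at 59.9 ± 20.04 CPM (SD, n = 5), it was higher in 5 of 5 libraries (exact permutation p = 0.0625, paired edgeR log2 difference 1.45, SE 0.502, adjusted p = 0.0122). Plxnb3 was highest in the oligodendrocyte lineage, at 20.3 ± 9.05 CPM against 0.54 ± 0.84 CPM in astroglia-like nuclei (SD, n = 8 each, higher in 8 of 8 libraries, exact permutation p = 0.00781), on 93 UMIs in that class. Plxnb2 was highest in choroid/ependymal-like nuclei at 222 ± 53.9 CPM (SD, n = 3), followed by the microglia-like class at 174 ± 91.8 CPM (SD, n = 8). Plxnc1, the Sema7a receptor, had 223 ± 63.5 CPM in astroglia-like and 151 ± 34.3 CPM in Tshz1/Pbx3-led InhN nuclei (SD, n = 8 each, higher in 6 of 8 libraries, exact permutation p = 0.0469), a difference that kept an exact p under 0.05 in 6 of 14 alternatives.

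Most of the 14 known ligand and receptor pairs computed stood highest in different classes. The share among other gene pairs was not computed, so whether this is particular to ligands and receptors was not tested. Sema7a was highest in endothelial-like nuclei, where its receptor Plxnc1 had 16.8 CPM, and Plxnc1 in astroglia-like nuclei, where Sema7a had 5.29 CPM. Their rank correlation over the 17 class means was -0.53. Sema3a and Nrp1 had a rank correlation of -0.41, with 29.4 CPM of Sema3a in the microglia-like class that led for Nrp1, and Sema6a had -0.32 with Plxna4 and -0.27 with Plxna2. Sema3a and Plxna4 had the highest value of the 14 pairs computed, 0.49. Of those pairs only Sema5a and Plxnb3 shared a highest class, the oligodendrocyte lineage. These correlations are a description, given without a test because the 17 classes come from the same libraries and differ in depth.

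Comparing Het with WT libraries asked whether the loss of 1 functional Myt1l allele moved the guidance system within a class. No member was called in any class. Of 253 member and class pairs tested, 0 passed an adjusted p under 0.05 with a log2 fold change of 0.2 or more (edgeR quasi-likelihood test, adjusted over all genes of the class), and DESeq2 also called 0. The background share was 0.00784% of 89318 gene and class pairs by edgeR, 7 in all, and 0.0705% by DESeq2, 63 in all. At an unadjusted p under 0.05 edgeR gave 23 pairs, or 9.09%, against 6.4% over all gene and class pairs. DESeq2 gave 20 pairs, for which no share over all genes is given. The smallest adjusted p of a pair was 0.229. Plxna4os1, Plxnb3, Sema3b and Sema3g were too sparse to be tested in any class. The 20 pairs of smallest p that kept their sign with each library left out are described below, 12 with the higher mean in Het and 8 with the lower, and none of them is a called change. All 23 pairs with an unadjusted edgeR p under 0.05 kept their sign in this way, so that rule removed none of them.

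**Figure D3:**
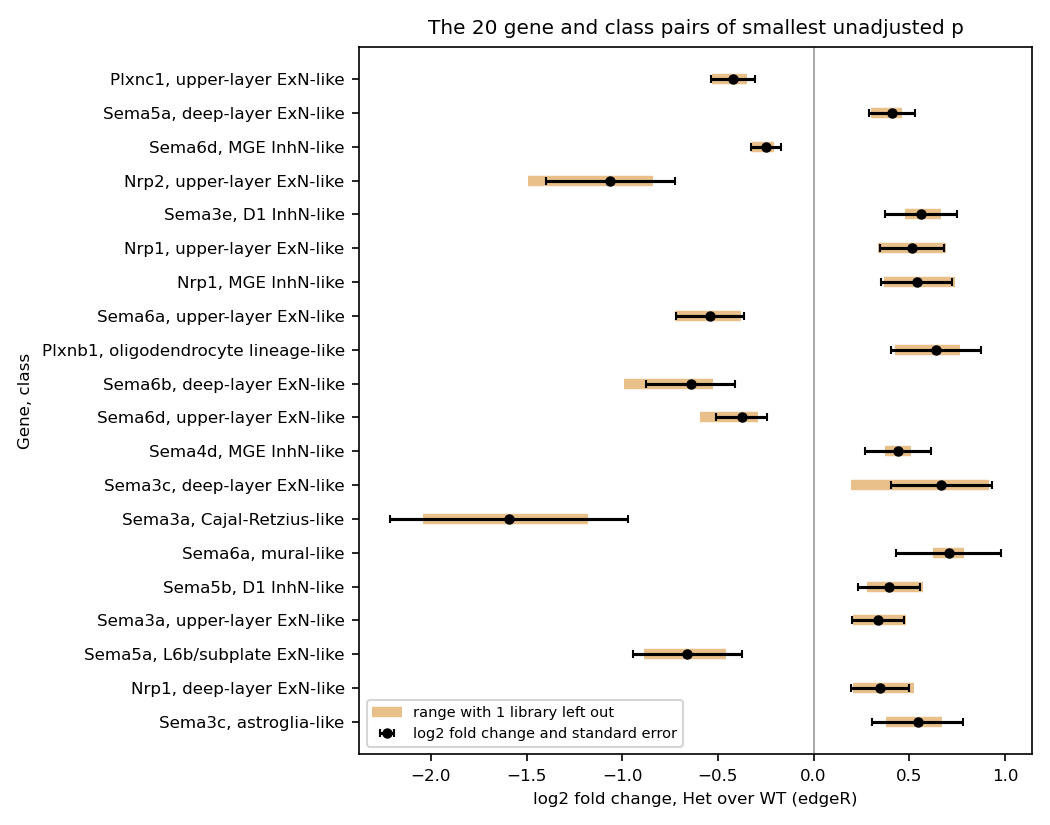
Log2 fold change of Het over WT (x axis, edgeR) with its standard error for the 20 member and class pairs of smallest unadjusted p (y axis), and in orange the range over fits that leave out 1 library. Sema3a in Cajal-Retzius-like nuclei has the largest value, -1.59, and the widest error, 0.62.

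Upper-layer ExN-like nuclei held 6 of the 20 pairs. There 6 of 30 members tested (20%) had an unadjusted p under 0.05, against 11.2% of all genes of the class. Nrp2 stood between 14.3 and 69.5 CPM in WT libraries (median 41.0) and at 17.5, 9.75, 13.2 and 38.4 CPM in Het male 1, male 2, male 3 and female 1. Het male 2 and male 3 lay below all 8 WT libraries, and Het male 1 lay below all but WT female 2 at 14.3 CPM. Het female 1 lay within the WT range. The log2 fold change was -1.06 (SE 0.34, adjusted p = 0.276).

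Plxnc1 stood between 62.9 and 98.7 CPM in WT libraries (median 75.6) and at 63.0, 48.0, 48.3 and 72.2 CPM in the Het libraries in the same order (log2 fold change -0.42, SE 0.12, adjusted p = 0.229). Sema6a stood between 66.9 and 116 CPM (median 85.6) and at 66.2, 38.6, 53.1 and 84.7 CPM (log2 fold change -0.54, SE 0.18, adjusted p = 0.278). Sema6d stood between 402 and 592 CPM (median 511) and at 313, 367, 312 and 550 CPM (log2 fold change -0.38, SE 0.13, adjusted p = 0.305). In each of these ligands and receptors Het female 1 was the highest Het library and lay within the WT range, so the groups overlapped.

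Nrp1 and Sema3a had the higher mean in Het. Nrp1 stood between 97.3 and 157 CPM in WT libraries (median 137) and at 116, 255, 241 and 150 CPM in the Het libraries, with Het male 2 and male 3 above every WT library (log2 fold change 0.52, SE 0.17, adjusted p = 0.278). Sema3a stood between 63.1 and 95.4 CPM (median 74.9) and at 96.1, 97.9, 118 and 61.4 CPM (log2 fold change 0.34, SE 0.14, adjusted p = 0.361). For Sema3a the 3 Het males lay above every WT library and Het female 1 below. Without Het male 2 the value of Nrp1 was 0.33, and without Het male 3 that of Sema3a was 0.21.

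**Figure D4:**
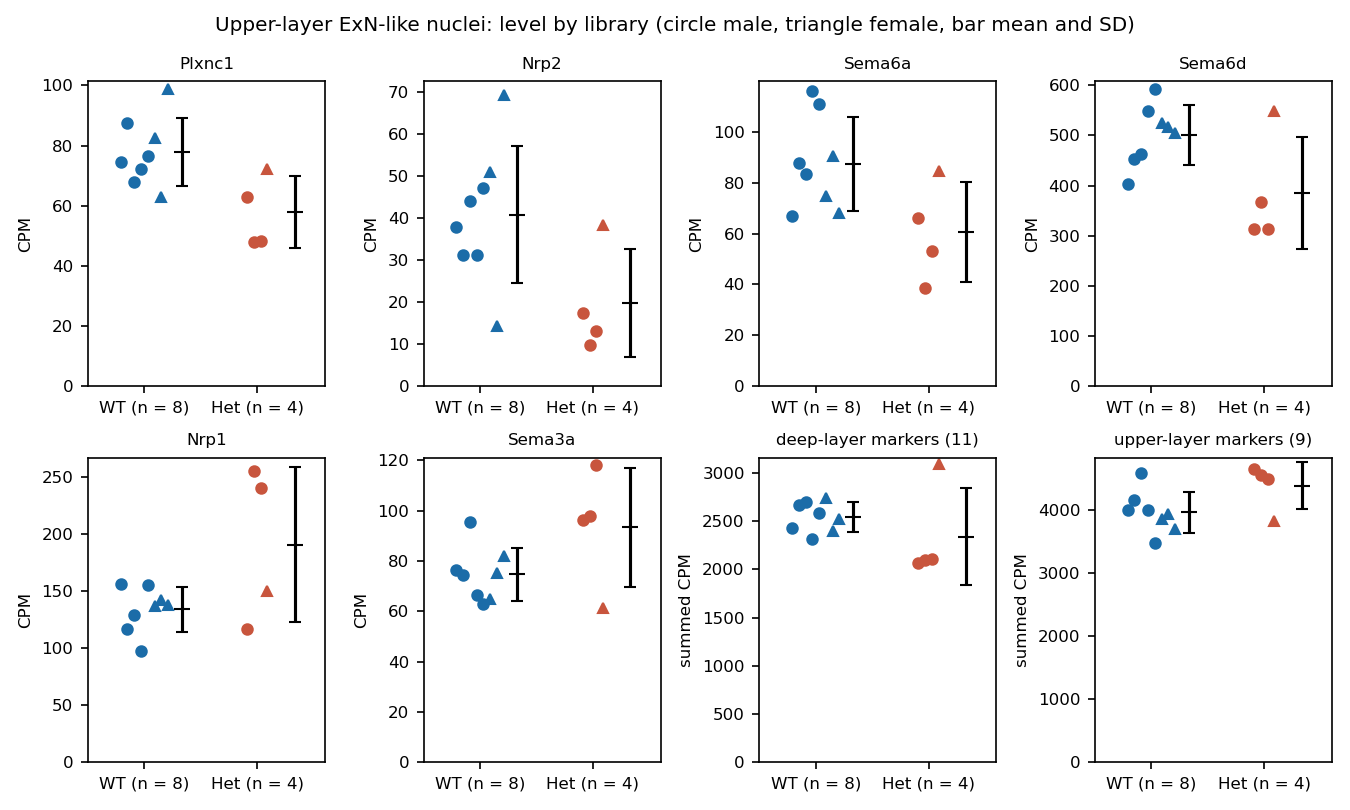
Level in upper-layer ExN-like nuclei by library (y axes, CPM or summed CPM, starting at 0) for 6 members and for the marker lists of deep and upper layers; circles are male and triangles female libraries, bars the mean and SD. Het female 1 stands apart from the 3 Het males in Nrp2, Sema6d, Sema3a and the deep-layer marker sum.

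Leaving out Het female 1 brought Nrp2, Plxnc1, Sema6a, Sema6d and Sema3a in this class past the threshold, which made 5 of 30 members in this class against 2.46% of the 14299 genes tested in it without this library, with log2 fold changes of -1.49, -0.53, -0.72, -0.59 and 0.48 (edgeR adjusted p = 0.0142, 0.0165, 0.0326, 0.00502 and 0.0273). With male libraries alone Nrp2, Plxnc1, Sema6a and Sema6d passed in it, as did Sema5b, against 1.73% of the 14298 genes tested in it. Plxna4 in the microglia-like class also passed (log2 fold change 1.39, SE 0.29, edgeR adjusted p = 0.0206), which made 6 pairs in all. The highest class of Plxna4 was upper-layer ExN-like, and the part of neuronal RNA in its microglia-like level was not tested. Some marker sums within the class also set the 3 Het males apart from Het female 1. The summed level of 11 deep-layer markers within upper-layer ExN-like nuclei was 2061, 2091 and 2105 CPM in the 3 Het males, below all WT libraries (2311 to 2737 CPM), and 3089 CPM in Het female 1, above all of them. Most of this sum was Sox5 and Ldb2, at 1205 and 816 CPM in the class over all libraries. Tle4, Foxp2 and Hs3st4 stood at 22.4, 41.5 and 34.2 CPM there. The sum of 9 upper-layer markers was 4652, 4554 and 4486 CPM in the Het males, 3827 CPM in Het female 1 and 3476 to 4588 CPM in WT libraries. The 9 L6b/subplate markers summed to 197, 140 and 174 CPM in the Het males, below all WT libraries (220 to 354 CPM), and to 275 CPM in Het female 1, within their range. The 7 markers of the Tshz1/Pbx3-led InhN list summed to 798, 675 and 730 CPM in the Het males, again below all WT libraries (843 to 1317 CPM), and to 1006 CPM in Het female 1. Most of this sum was Meis2, at 912 CPM in upper-layer ExN-like nuclei over all libraries, with Tshz1 at 2.97 and Pbx3 at 34.1 CPM. The 16 astroglia markers did not set the Het males apart. They summed to 121, 163 and 212 CPM in the Het males, 149 CPM in Het female 1 and 109 to 164 CPM in WT libraries. The sums of the remaining marker lists in this class are not described by library. Deep-layer ExN-like nuclei made up 3.02%, 3.22% and 4.64% of kept nuclei in the Het males, 7.81% in Het female 1 and between 3.79% and 14.2% in WT libraries, so the genotypes overlapped in this share. The part of these sums and shares in the member levels was not tested, and with 1 Het female library sex and animal cannot be told apart.

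For Nrp1, 2 further neuronal classes were among the 20 pairs. In MGE InhN-like nuclei it stood between 28.4 and 50.8 CPM in WT libraries (median 43.3) and at 36.1, 84.2, 78.8 and 49.0 CPM in the Het libraries (log2 fold change 0.54, SE 0.19, adjusted p = 0.420). In deep-layer ExN-like nuclei it stood between 156 and 261 CPM (median 197) and at 216, 325, 322 and 164 CPM (log2 fold change 0.34, SE 0.15, adjusted p = 0.682). As in the upper layer, Het male 2 and male 3 were the high libraries in both classes, and Het male 1 and female 1 lay within the WT range. Within MGE InhN-like nuclei the summed level of 10 pan-excitatory markers was 92.4, 107, 212 and 101 CPM in the Het libraries and 41.4 to 84.0 CPM in WT libraries, without overlap. The sums of all other marker lists overlapped between genotypes in this class. The mean was higher in Het for 8 of the 10 markers, 0 of them stood at 0 in all libraries, and the part of these markers in the MGE levels of Nrp1, Sema6d and Sema4d was not tested. The MGE log2 fold change of Nrp1 was 0.15 under the stricter gate and 0.35 with all barcodes, and the deep-layer value was 0.20 without Het male 2, 0.21 without Het male 3 and 0.53 without Het female 1. In the other neuronal classes the log2 fold change of Nrp1 was 0.67 in Tshz1/Pbx3-led InhN, 0.34 in D1 InhN-like, 0.14 in CGE InhN-like, -0.08 in D2 InhN-like and -0.32 in L6b/subplate ExN-like nuclei, with edgeR adjusted p between 0.876 and 0.9999.

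In deep-layer ExN-like nuclei Sema5a stood between 109 and 211 CPM in WT libraries (median 150) and at 182, 252, 197 and 196 CPM in Het libraries (log2 fold change 0.41, SE 0.12, adjusted p = 0.519). WT female 3, at 211 CPM, was the only WT library within the Het range, and the value was 0.27 under the stricter gate. Sema6b, a ligand of Plxna4, stood between 10.8 and 19.9 CPM (median 15.4) and at 7.76, 6.07, 8.69 and 13.8 CPM (log2 fold change -0.64, SE 0.23, adjusted p = 0.571), with the 3 Het males below every WT library and a value of -0.99 without Het female 1. Sema3c stood between 13.3 and 35.8 CPM and at 24.6, 32.8, 62.8 and 21.9 CPM (log2 fold change 0.67, SE 0.27, adjusted p = 0.622), a value that 1 library set in part, since it was 0.20 without Het male 3.

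In MGE InhN-like nuclei Sema6d stood between 905 and 1165 CPM in WT libraries (median 1091) and at 840, 832, 908 and 1041 CPM in Het libraries (log2 fold change -0.25, SE 0.08, adjusted p = 0.361). Sema4d stood between 17.2 and 30.0 CPM (median 25.6) and at 29.02, 38.2, 30.8 and 35.7 CPM (log2 fold change 0.44, SE 0.17, adjusted p = 0.5504). The groups overlapped in both. In D1 InhN-like nuclei Sema3e stood between 20.1 and 70.3 CPM (median 46.3, n = 7) and at 71.7, 70.2, 79.6 and 61.4 CPM (log2 fold change 0.56, SE 0.19, adjusted p = 0.614), and Sema5b between 66.2 and 123 CPM and at 164, 87.4, 145 and 131 CPM (log2 fold change 0.39, SE 0.16, adjusted p = 0.719). The value of Sema5b was 0.15 with all barcodes.

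Cajal-Retzius-like nuclei had the largest fold change and the widest spread. Sema3a stood at 72.9, 257, 93.2, 10.3 and 58.1 CPM in WT males 1 to 5, at 72.7, 8.68 and 242 CPM in WT females 1 to 3, and at 55.1, 22.3, 28.97 and 15.5 CPM in the Het libraries. The log2 fold change was -1.59 (SE 0.62, adjusted p = 0.963) on 134 UMIs in all. WT male 2 and WT female 3 carried the high values, and WT male 4 and WT female 2 lay below every Het library.

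The remaining pairs lay in sparse classes or in glia. In mural-like nuclei Sema6a stood at 450, 452, 400, 265 and 409 CPM in the 5 WT libraries used and at 642, 800 and 541 CPM in the 3 Het males (log2 fold change 0.71, SE 0.28, adjusted p = 0.964). The groups did not overlap, on 132 UMIs in all, as was the case for 2.49% of the 643 genes tested in this class. Sums of some marker lists named for other cell types were apart in it too. Every marker list was summed in this class, and only those without overlap are given. The 10 pan-excitatory markers stood at 64.6 to 204 CPM in WT and 233 to 565 CPM in Het libraries. The 13 oligodendrocyte lineage markers stood at 664 to 803 and 481 to 590 CPM, and the 11 deep-layer markers at 3085 to 3837 and 2214 to 2891 CPM. Of these, Cspg4 on the oligodendrocyte list was highest in mural-like nuclei themselves, at 468 CPM over all libraries. Sox5 on the deep-layer list stood at 2050 CPM there. The mean was higher in Het for 5 of the 10 pan-excitatory, 0 of the 13 oligodendrocyte and 4 of the 11 deep-layer markers. Of these lists 5, 5 and 1 markers stood at 0 in every library, Slc17a7, Olig1 and Fezf2 among them, and their part in the Sema6a levels was not tested. Plxnb1 in oligodendrocyte lineage-like nuclei averaged 38.5 ± 13.2 CPM over 8 WT libraries and 57.8 ± 14.8 CPM over 4 Het libraries (± SD; edgeR adjusted p = 0.968). Without Het male 2 its log2 fold change was 0.43 in place of 0.64. Sema3c in astroglia-like nuclei averaged 19.4 ± 6.73 CPM over 8 WT libraries and 29.3 ± 9.18 CPM over 4 Het libraries (± SD; edgeR adjusted p = 0.797). Sema5a in L6b/subplate ExN-like nuclei averaged 308 ± 134 CPM over 8 WT libraries and 193 ± 69.8 CPM over 4 Het libraries (± SD; edgeR adjusted p = 0.958), and its log2 fold change was -0.66, or -0.35 with all barcodes. WT female 3, at 599 CPM, lay above every other library. With each library left out the log2 fold change of this pair ran from -0.88 to -0.46.

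Over all kept nuclei 0 of 33 members tested were called, by edgeR and by DESeq2 alike, with 4 at an unadjusted p under 0.05 in each. The background share by edgeR was 0% of 20409 genes for calls and 10.1% at an unadjusted p under 0.05. The smallest p was that of Sema6a, which stood between 217 and 243 CPM in WT libraries and at 245, 185, 190 and 199 CPM in Het libraries (log2 fold change -0.22, SE 0.07, adjusted p = 0.371), with Het male 1 above every WT library and the other Het libraries below. Sema4a, Nrp1 and Sema6c were the others, with log2 fold changes of -0.18, 0.44 and -0.18. In such sums fewer nuclei of a class and less RNA per nucleus cannot be told apart. The median log2 fold change of the members was -0.023 over all kept nuclei and 0.0049 in upper-layer ExN-like nuclei, with 16 of 33 and 15 of 30 above 0, against 0.00053 and -0.0027 over all genes tested.

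No signalling partner was called within a class. Of 63 listed partners, adaptors and effectors, 58 were tested in at least 1 class, and 0 of 610 gene and class pairs were called in either direction by edgeR and 0 by DESeq2. At an unadjusted p under 0.05, edgeR gave 20 pairs higher and 18 lower in Het, against the 6.4% of all gene and class pairs given above. DESeq2 gave 27 in all, again without a share over all genes. By group, co-receptors and receptor partners had 8 higher and 2 lower of 81, GTPases and exchange factors 2 and 7 of 157, cytoplasmic kinases 6 and 5 of 150, collapsin response mediators 1 and 1 of 57, MICAL proteins and cytoskeletal effectors 1 and 3 of 80, receptor adaptors 0 and 0 of 64, and other neuropilin ligands 2 and 0 of 21. Over all kept nuclei edgeR called 0 of the 63 partners. An unadjusted p under 0.05 was reached by 13 of them (10.1% of all genes did so), of which 11 had a log2 fold change below 0 and 2 above 0 in Het over WT. DESeq2 gave 16 and called 1 of 63, Limk1 (log2 fold change -0.37, SE 0.09, DESeq2 adjusted p = 0.0295), for which edgeR gave -0.36 (SE 0.08, edgeR adjusted p = 0.368). The DESeq2 share over all genes of all kept nuclei is not given, so its counts here stand without a background.

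The 5 partner pairs of smallest p were as follows in their levels, and Ptprz1 and Limk1 in the classes named passed the threshold when the filter on low counts was left out. Ptprz1, a receptor phosphatase, averaged 184 ± 38.7 CPM over 8 WT and 278 ± 72.4 CPM over 4 Het libraries in deep-layer ExN-like nuclei (± SD, edgeR adjusted p = 0.419). Ptprz1 was a leading gene of astroglia-like nuclei, at 9646 CPM over all libraries, and the part of astroglial RNA in its deep-layer level was not tested. Tiam1, a Rac exchange factor, averaged 368 ± 28.5 CPM over 8 WT and 303 ± 25.1 CPM over 4 Het libraries in MGE InhN-like nuclei (± SD; edgeR adjusted p = 0.287). Limk1, the kinase that acts on cofilin, averaged 26.9 ± 5.16 CPM over 8 WT and 19.2 ± 2.62 CPM over 4 Het libraries in upper-layer ExN-like nuclei (± SD; edgeR adjusted p = 0.229). Nrcam, a neuropilin co-receptor, averaged 589 ± 97.5 CPM over 7 WT and 464 ± 57.0 CPM over 4 Het libraries in D1 InhN-like nuclei (± SD; edgeR adjusted p = 0.548). Abl1, a kinase of the actin cytoskeleton, averaged 135 ± 24.9 CPM over 8 WT and 93.3 ± 12.9 CPM over 4 Het libraries in meningeal fibroblast-like nuclei (± SD; edgeR adjusted p = 0.9995).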

How the data were processed

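Single nuclei of P1 mouse forebrain were profiled in 12 libraries. The authors aligned the reads to mm10 and deposited a gene by barcode matrix per library, whose values are expected counts of UMIs: between 6.58% and 6.88% of entries are not whole. Per the labels, Seurat 4.3.0 was among the submitters' tools. Nuclei with 800 to 6000 UMIs, 300 to 3000 genes and at most 1% mitochondrial UMIs were kept, with a further minimum of 0.9 on the ratio of log genes to log UMIs. Nuclei were assigned by a Poisson model over 159 marker genes (posterior of at least 0.9 and at least 2 own markers). Nuclei better described by 2 lineages were dropped, which was the treatment of doublets; no separate caller was run. The gate's thresholds were set after the data had been seen.

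Counts were summed per class and library, rounded to whole numbers and tested with edgeR 4.0.16 (quasi-likelihood, genotype only, R 4.3.3) on all genes of the class with Benjamini-Hochberg adjustment, and with DESeq2 1.42.0 as an alternative. A class needed 10 nuclei in a library and 3 libraries per genotype. D1 and D2 InhN-like fits used 7 WT libraries, mural-like 5 WT and 3 Het, and choroid/ependymal-like 3 and 3. Levels are CPM, and class differences used log2(CPM + 1) with a two-sided exact sign-flip test (scipy 1.17.1). That test was first planned with adjustment over the members; it is given unadjusted, beside the share over all genes. The script was tested on simulated data. Intervals cover counting error only.

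Levels are given for the 20 member and class pairs of smallest p that kept their sign with each library left out, and for the 5 pathway pairs of smallest p. Most member pairs have values by library. Some member pairs and all 5 pathway pairs have the mean and SD only. The members and lists were chosen with earlier results of these data known. Alternatives were DESeq2, no filter on low counts, sex as a covariate, male libraries only, a replicate block, all barcodes, a stricter gate (posterior of at least 0.99 and 3 markers), other pseudocounts and each library left out.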

Additional observations from a re-analysis of the deposited data

Results flagged for a closer look

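In 102 groups of 4 to 8 libraries, 7 held a library whose gap to its neighbour passed Dixon's 95% critical value, and chance alone gives about 1 in 20 groups. In WT libraries, Sema6a in mural-like nuclei was 264.6 CPM in WT male 5 against 400 to 452 CPM in the others. Sema5a in L6b/subplate ExN-like nuclei was 599.2 CPM in WT female 3 against 159 to 367 CPM. Nrp1 in the microglia-like class was 2132 CPM in WT male 2 against 983 to 1488 CPM. Sema5a in oligodendrocyte lineage-like nuclei was 324.5 CPM in WT female 1 against 463 to 562 CPM.

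In Het libraries, Plxnc1 in astroglia-like nuclei was 123.3 CPM in Het male 3 against 216 to 228 CPM. Plxna4os1 in upper-layer ExN-like nuclei was 1.32 CPM in Het female 1 against 0.34 to 0.50 CPM. Plxnb3 in oligodendrocyte lineage-like nuclei was 40.8 CPM in Het female 1 against 16.9 to 20.9 CPM.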

How the results depend on the processing

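For members within classes, 0 pairs were called by edgeR as reported, and also with DESeq2, sex as a covariate, all barcodes or the stricter gate. Without the filter on low counts 8 of 544 were called (0.17% of all gene and class pairs), with male libraries only 6 of 255 (0.325%), and with each library left out between 0 and 5, the 5 of 255 without Het female 1 (0.43%). The 8 were Nrp1, Nrp2, Plxnc1, Sema3a, Sema6a and Sema6d in upper-layer ExN-like and Sema3a and Sema3e in Cajal-Retzius-like nuclei. For pathway genes 5 pairs were called without the filter (Limk1 and Met in upper-layer ExN-like nuclei, and Ptprz1 in upper-layer ExN-like, deep-layer ExN-like and meningeal fibroblast-like nuclei), 1 with male libraries only (Met in upper-layer ExN-like nuclei) and between 0 and 1 with each library left out, the same pair without Het female 1. The cause was not tested. Over all kept nuclei every alternative run gave 0 members. Of 377 refits of the 20 single pairs, 360 stayed on the same side of the threshold, 17 passed it and 0 turned direction. The pairs were chosen for keeping their sign with each library left out, so direction could not turn in those refits. The leading class exceeded the runner-up for 15 to 17 members with a WT library left out.

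With sex and label number as a replicate block, 2 of 253 member pairs were called (0.0493% of all gene and class pairs), Sema3a (log2 fold change -1.71, edgeR adjusted p = 0.0383) and Sema3e (-1.33, edgeR adjusted p = 0.0306) in Cajal-Retzius-like nuclei, and 0 pathway pairs. The numbers do not pair the libraries: same-numbered libraries deviated together with correlations of -0.19, 0.11, 0.09 and 0.29 over 19643 genes, and only Het female 1 correlated best with its own number. Sparse classes limit the depth: in mural-like nuclei Sema6a rests on 132 UMIs, and 4 members were too sparse for any class fit.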

Other observations

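Sema3c was among the 10 leading genes of a class too small to test, the 41 intermediate progenitor-like nuclei. It had 33 of their 75678 UMIs, or 436 CPM, with a 95% exact Poisson interval of 300.2 to 612 CPM that covers counting error only. These nuclei come from both genotypes, 18 from WT and 23 from Het libraries. Eomes, Mfap4 and Neurog2 led that class.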
